A study of Mus musculus with 14 samples.

Results

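The collagen genes were taken as every gene whose symbol reads Col, a number, the letter a and a number, which is how the alpha chains of collagens are named. This rule found 42 of the 27099 rows of the count table, and it used no measured value. Their transcripts were counted in 14 libraries of bone marrow stromal cells (BMSCs) sorted from Nes-GFP mice, in which regulatory elements of the nestin gene drive GFP, according to whether GFP was high or low. The Nes-GFP high population gave 2 libraries from mice with acute myeloid leukemia (AML) and 2 from normal mice, and the Nes-GFP low population gave 4 libraries from AML mice and 6 from normal mice. The AML mice were iMLL-AF9 mice, which carry the transactivator rtTA at the ROSA26 locus and the human MLL-AF9 oncogene under an element that answers to doxycycline, and they had received doxycycline until leukemia was evident in the blood. Normal mice had sucrose water in place of doxycycline, so leukemia and the drug cannot be told apart, and rtTA at ROSA26 is not limited to blood cells. Every mouse carried the Nes-GFP reporter. In the cell counts of the study, controls were Nes-GFP;rtTA mice without the oncogene, and its mice in general were young adults matched for age and sex, but neither is stated per library. Bones were crushed with collagenase, and GFP+ cells that were negative for CD45, CD31 and DAPI (in the methods of the study also for Ter119) were sorted and frozen. Some libraries were from single mice and others from pools, which is not stated per library, so p-values measure the spread between these libraries, part of which may be technical.

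Collagens are trimers of alpha chains that are wound into a triple helix in the endoplasmic reticulum, secreted and assembled outside the cell. Fibrillar collagens build the cables of bone, skin and cartilage, type IV and the short-chain types VIII and X build networks, type VI builds beaded filaments, and the fibril-associated collagens (FACITs) sit on the surface of fibrils. Type I collagen is the main protein of bone matrix and is made by osteoblasts, whereas types II, IX and XI form the fibrils of cartilage and are made by chondrocytes. Around marrow vessels, reticular stromal cells and pericytes contribute to basement membrane and interstitial collagens.

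Collagen transcripts were a large part of the RNA in most libraries and a small part in a few. In the Nes-GFP high population they took 2.73% and 3.10% of all counts in AML mice, against 8.26% and 3.13% in normal mice. In Nes-GFP low BMSCs they took 4.13%, 1.70%, 0.556% and 1.01% in replicates 1 to 4 from AML mice, against 2.44% to 5.28% in the 6 libraries from normal mice. Of the 4 Nes-GFP low libraries from AML mice, 3 lay below all 6 from normal mice and replicate 1 lay among them. In sorted bulk cells, fewer cells of a type and less RNA per cell cannot be told apart. Levels are given in CPM, counts scaled to library size after TMM, which allows for the composition of each library. The mean of 30 collagen genes was 10 CPM or higher, 19 reached 10 CPM in all 14 libraries, and 9 reached 1 CPM in at most 3 libraries. Libraries held 5615941 to 11436652 counts, so 1 CPM stands for several reads and values far below it rest on single reads.

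**Figure D1:**
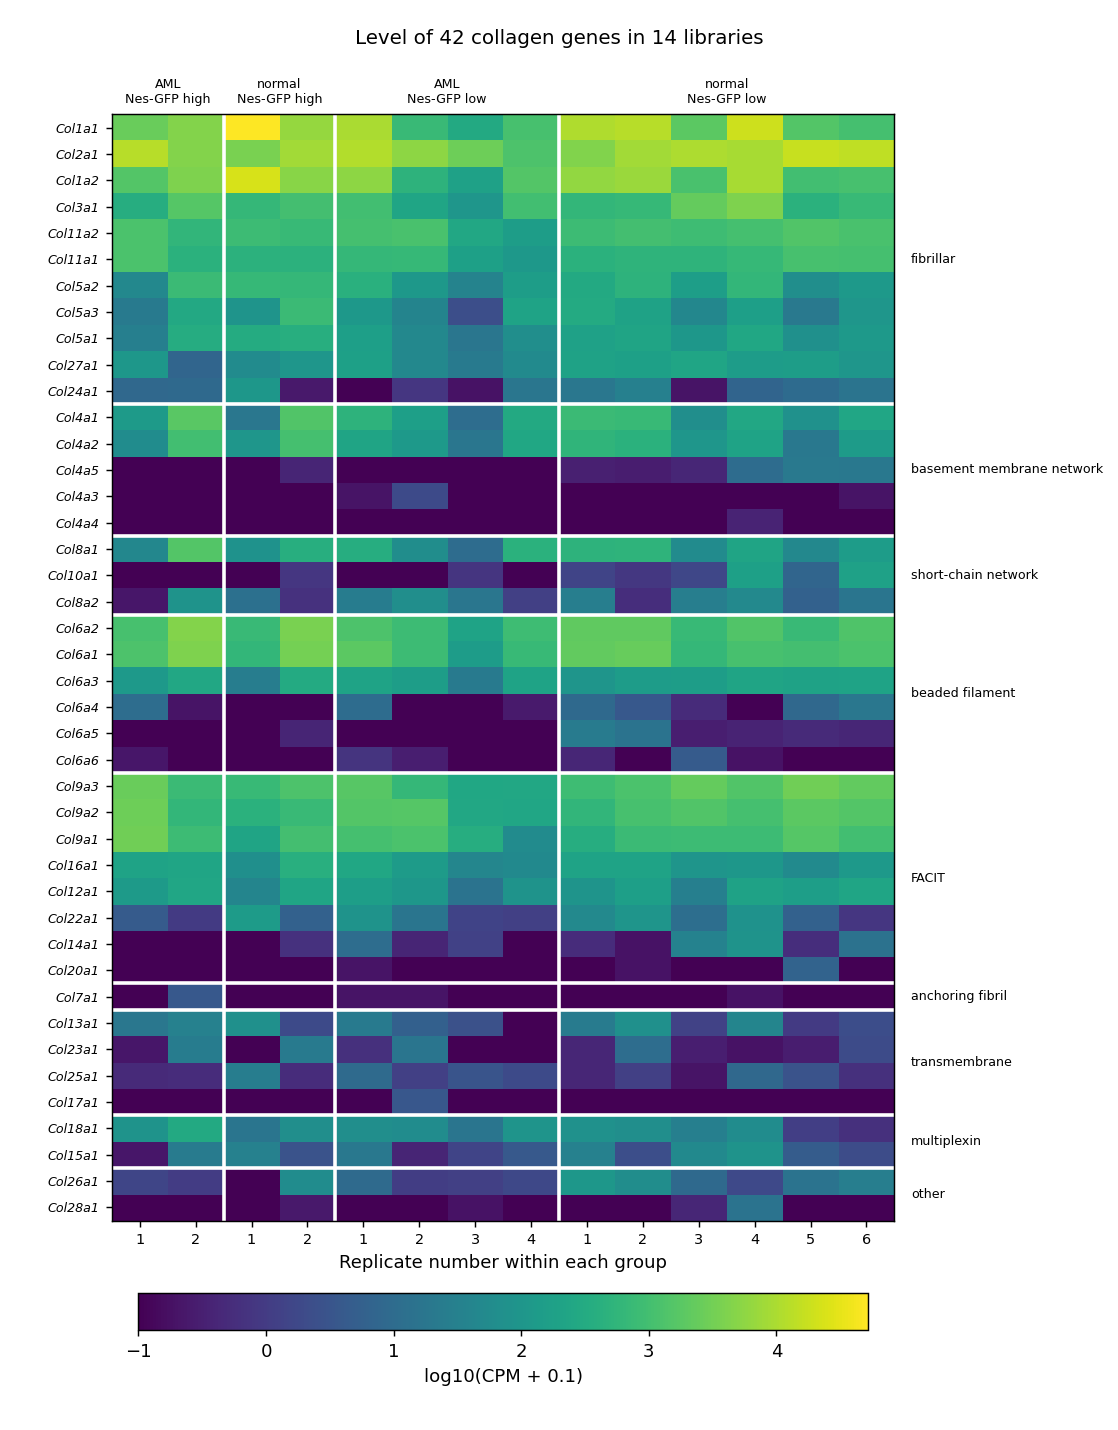
The level of the 42 collagen genes (down the page, grouped by class) in the 14 libraries (across, by group and replicate), with colour giving log10 of CPM plus 0.1. Col1a1, Col2a1 and Col1a2 are the brightest genes, and 9 genes reached 1 CPM in at most 3 libraries.

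The libraries differed in markers of several cell types, and these values stand here once because they touch every result below. Marrow stroma markers (9 genes, among them Cxcl12 and Lepr) summed to 2069 and 34514 CPM in AML against 8041 and 51545 CPM in normal Nes-GFP high libraries, and to 405 to 17897 CPM in AML against 2929 to 53353 CPM in normal Nes-GFP low libraries. Osteoblast markers (7 genes) were at most 14252 CPM except in normal Nes-GFP high replicate 1 with 24438 CPM, and chondrocyte markers (5 measured) lay between 584 and 5766 CPM. Myeloid markers (10 genes) should be absent after a CD45- sort, yet they reached 94974 CPM in AML Nes-GFP low replicate 3, 102055 and 50830.5 CPM in normal Nes-GFP low replicates 3 and 4, while normal Nes-GFP high replicate 1 held 33976 CPM, with at most 18423 CPM in the other libraries. Erythroid markers (8 genes) summed to 46.2 and 9.0 CPM in Nes-GFP high libraries of AML mice, against 2776 and 130.3 CPM in those of normal mice, and to 12.0, 17.0, 115 and 2297 CPM in Nes-GFP low libraries of AML mice, against 401 to 3061 CPM in normal mice. Lymphoid markers (7 genes) summed to 5.2 and 1.26 CPM in Nes-GFP high libraries of AML mice, against 289 and 16.6 CPM in normal mice, and to 36.0 to 147 CPM in Nes-GFP low libraries of AML mice, against 26.8 to 1462 CPM in normal mice. Pericyte and smooth muscle markers (8 genes) summed to 482 and 486 CPM in AML against 275 and 1626 CPM in normal Nes-GFP high libraries. In Nes-GFP low libraries they summed to 29.0 to 251 CPM in AML and 62.9 to 146 CPM in normal mice. Fibroblast markers (6 genes) were at 8222 and 5851 CPM in normal Nes-GFP low replicates 4 and 3, and at 1753 to 4853 CPM elsewhere. Schwann cell markers (5 measured) stood at 65.6 to 223 CPM. The part of these cells in the collagen levels was not tested. Endothelial markers (6 measured) were at or below 48.3 CPM throughout. Nes itself stood at 32.3 and 26.7 CPM in Nes-GFP high libraries of AML mice, against 2.27 and 36.0 CPM in those of normal mice, and at or below 5.7 CPM in all Nes-GFP low ones. Normal Nes-GFP high replicate 1 thus lacked the Nes level of its group, and it detected 14842 genes where the other libraries detected 18177 to 20197.

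Upstream sequence is shown for 4 genes on which results below turn, because their levels varied between libraries in different ways. Col11a1 and Col11a2 are chains of cartilage fibrils whose ratio spanned 1.88-fold over the libraries. Col8a1 and Col10a1 are short-chain network collagens whose levels differed widely between libraries. Each sequence is the 250 bases before the start of transcription, from RefSeq (GRCm38.p6), which gave such windows for 33 of the 42 genes, 36 windows in all. Capitals mark the CCAAT box, the GC box GGGCGG and the TATA box TATAAA, each on either strand, and no marked motif overlaps another in these 4 windows.
Col11a1 (chr3:114030290-114030539, plus strand): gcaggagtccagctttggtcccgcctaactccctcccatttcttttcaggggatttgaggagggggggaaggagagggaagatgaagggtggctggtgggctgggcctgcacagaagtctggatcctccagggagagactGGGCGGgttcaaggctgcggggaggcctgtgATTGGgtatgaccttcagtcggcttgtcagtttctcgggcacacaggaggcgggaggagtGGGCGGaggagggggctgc
Col11a2 (chr17:34038888-34039137, plus strand): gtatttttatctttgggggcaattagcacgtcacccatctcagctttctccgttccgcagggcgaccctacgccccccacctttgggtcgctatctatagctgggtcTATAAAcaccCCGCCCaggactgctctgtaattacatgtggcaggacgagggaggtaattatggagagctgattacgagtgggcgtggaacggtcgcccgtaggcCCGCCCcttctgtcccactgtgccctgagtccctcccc
Col8a1 (chr16:57754738-57754987, minus strand): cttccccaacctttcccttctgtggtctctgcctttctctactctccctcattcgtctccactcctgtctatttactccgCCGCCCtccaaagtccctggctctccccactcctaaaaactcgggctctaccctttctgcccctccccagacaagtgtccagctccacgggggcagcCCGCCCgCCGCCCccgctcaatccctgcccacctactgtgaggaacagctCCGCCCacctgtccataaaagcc
Col10a1 (chr10:34389731-34389980, plus strand): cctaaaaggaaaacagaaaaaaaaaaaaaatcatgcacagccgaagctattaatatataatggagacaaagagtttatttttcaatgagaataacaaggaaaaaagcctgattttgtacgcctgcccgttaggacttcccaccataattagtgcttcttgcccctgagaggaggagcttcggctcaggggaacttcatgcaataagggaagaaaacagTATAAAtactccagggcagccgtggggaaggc
The window of Col11a1 holds 1 CCAAT and 2 GGGCGG, that of Col11a2 2 GGGCGG and 1 TATAAA, that of Col8a1 4 GGGCGG, and that of Col10a1 1 TATAAA and no GGGCGG. Over the 36 collagen windows, 13 held CCAAT (36.1%), 21 held GGGCGG (58.3%) and 5 held TATAAA (13.9%), against 33.8%, 32.7% and 12.4% of the 32851 windows of all genes. A match describes the letters and does not show that a factor binds there. Col4a1 and Col4a2, the chains of the common type IV collagen, lie head to head on chromosome 8, where their first exons overlap by 22 bases on opposite strands.

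Type I collagen and the cartilage collagens carried most of the collagen reads, and the balance between them differed widely between libraries of the same group. Col1a1 and Col1a2, the chains of type I collagen, made up 13.3% and 25.4% of collagen CPM in AML and 88.0% and 30.0% in normal Nes-GFP high libraries. Types II, IX and XI (Col2a1, Col9a1 to Col9a3, Col11a1 and Col11a2) made up 74.4% and 23.1% in AML and 7.43% and 33.5% in normal Nes-GFP high libraries. Per kilobase of exon, Col1a1 (1354 CPM per kb, mean of 14 libraries) and Col2a1 (889) led, followed by Col1a2 (388), Col9a2 (368), Col9a3 (357) and Col6a1 (352), a chain of the beaded filaments that surround many stromal cells. The length used merges all annotated exons of a gene (6563 bases for Col1a1, 12426 for Col1a2), so it can exceed that of the transcript made. This ranking therefore depends on the annotation as well as on the level.

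In Nes-GFP low BMSCs, type I collagen took 38.3%, 8.24%, 8.97% and 28.4% of collagen CPM in the 4 AML libraries, against 51.4%, 47.6%, 12.7%, 54.1%, 7.81% and 7.51% in the 6 normal libraries. The cartilage collagens took 44.0%, 71.8%, 78.1% and 23.3% in the AML libraries, against 22.6%, 31.3%, 67.1%, 27.5%, 82.3% and 74.8% in the normal ones. Type I exceeded the cartilage collagens in AML replicate 4 and in normal replicates 1, 2 and 4, the cartilage collagens exceeded type I in all other libraries of both groups, and the shares of AML and normal libraries overlapped. Type VI (Col6a1, Col6a2 and Col6a3) took 1.65% to 26.7% over the 14 libraries, and Col4a1 with Col4a2 took 0.138% to 8.22%.

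**Figure D2:**
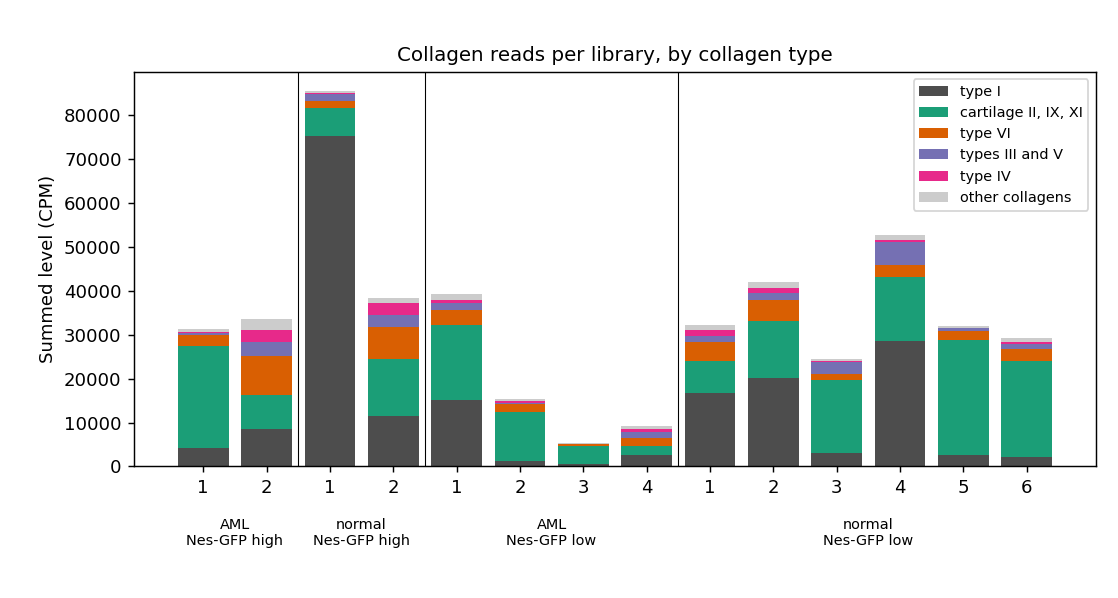
Summed CPM of the collagen genes (vertical axis) in each of the 14 libraries, stacked by type. The bar of normal Nes-GFP high replicate 1 is the tallest with 85581 CPM, 88.0% of it type I, and that of AML Nes-GFP low replicate 3 the lowest with 5321 CPM.

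Collagen genes shared their highest libraries with the marker sums to different extents. Of the 5 libraries with the highest Col4a1 or Col6a1, all 5 were also among the 5 with the highest marrow stroma sum, and for Col4a2, Col5a3, Col6a2, Col8a1 and Col16a1, 4 of 5 were. For Col2a1, Col9a2, Col9a3, Col11a1 and Col11a2, 4 of the top 5 libraries were among the top 5 for the chondrocyte sum, and for Col9a1 3 were. For Col5a1 and Col5a2, chains that set the thickness of type I fibrils, 4 of 5 were shared with the osteoblast sum. The same held for Col4a1, Col4a2, Col5a3, Col6a1, Col6a2, Col8a1 and Col13a1, and 3 of 5 were shared for Col16a1. Col16a1 also shared 4 of 5 with the pericyte and smooth muscle sum, and Col13a1 4 of 5 with the lymphoid sum. Normal Nes-GFP low replicates 1 and 2 and replicate 2 of both Nes-GFP high groups were in the top 5 of both the marrow stroma and the osteoblast sum. These counts therefore hardly tell the 2 lists apart. For Col1a1 and Col1a2, 3 of 5 were shared with the osteoblast sum, 3 of 5 with the marrow stroma sum and 4 of 5 with the lymphoid sum, so no one list of markers stood out. These counts describe the 14 libraries of all 4 groups and carry no test.

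**Figure D3:**
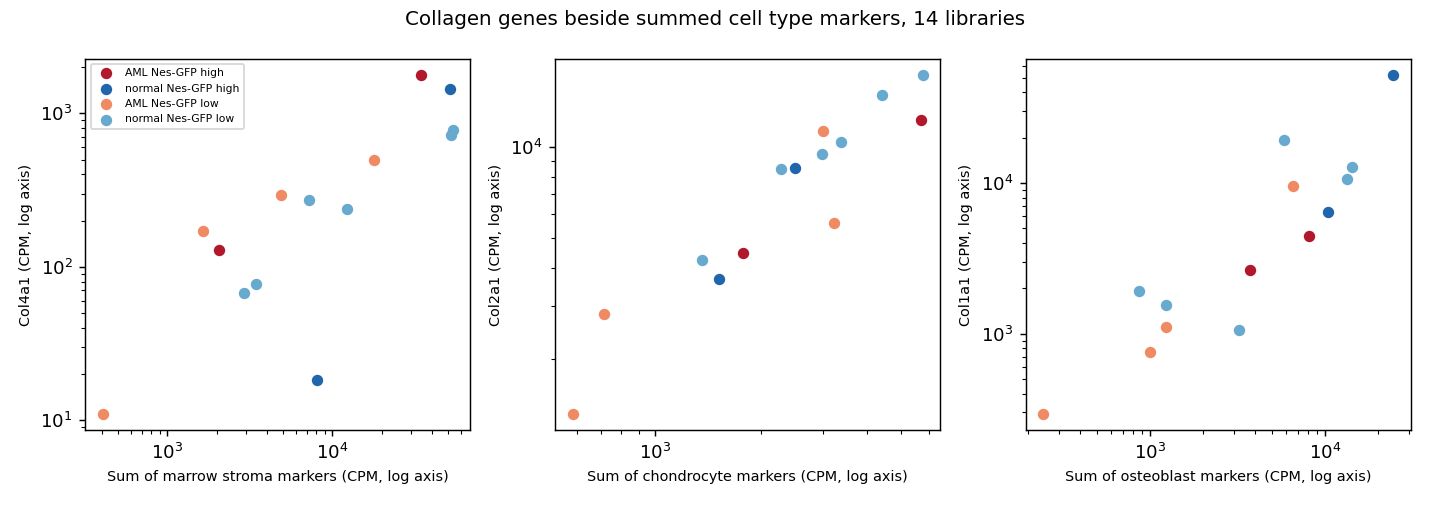
Col4a1 against summed marrow stroma markers, Col2a1 against summed chondrocyte markers and Col1a1 against summed osteoblast markers (CPM, log axes), 1 point per library, coloured by group. Of the top 5 libraries on each axis, 5 are shared for Col4a1, 4 for Col2a1 and 3 for Col1a1.

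The first comparison asked whether collagen transcripts of Nes-GFP low BMSCs, the population linked to sinusoids, differed between AML and normal mice. Most collagen genes had a log2 fold change below 0, but no single gene passed the test, and libraries within each group differed many-fold. The libraries did not overlap for 3 genes hardly counted in AML libraries, each by a margin of a few counts: Col10a1, the collagen of hypertrophic cartilage, Col4a5, a chain of the minor type IV network, and Col6a5, an alternative type VI chain. Among abundant genes, the cartilage chains Col2a1 and Col9a3 and the reticular fibre chain Col3a1 had lower means in AML, with overlapping libraries.

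Of the 42 collagen genes, 35 held enough counts to be tested, and Col20a1, Col17a1, Col7a1, Col6a6, Col4a4, Col28a1 and Col4a3, none above 14.7 CPM in any library, did not. By edgeR's quasi-likelihood test none of them passed an adjusted p of 0.05, where 0% of all 18152 genes tested did, and limma voom also called none. At an unadjusted p under 0.05 there were 5 of 35, against 5.54% of all genes, and DESeq2 called 3 of 35, against 0.738% (5 of 35 at an unadjusted p under 0.05, against 6.01%). The log2 fold change was below 0 for 31 of 35, where 49.8% of all genes were below 0, and the median was -0.84 against 0.00 over all genes. Genes enter the test through the group where they are high, so this count is a description and carries no test. It was 28 of 35, with a median of -0.52, without AML replicate 3, which had the lowest level of all 14 libraries in 15 of the 30 collagen genes above a mean of 10 CPM and a myeloid sum of 94974 CPM. Without both replicates 3, the libraries with the highest myeloid sum of each group, it was 28 of 35 with a median of -0.65. The part of marrow stroma and myeloid cells in these lower levels was not tested.

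Col10a1 was counted in 1 of the 4 AML libraries, with 0, 0, 0.647 and 0 CPM, against a lowest level of 0.756, a median of 4.46 and a highest level of 185 CPM in the 6 normal libraries. All 6 normal libraries lay above all 4 AML libraries, though by a narrow margin, and normal replicates 4 and 6, with 176 and 185 CPM, held nearly all of its reads. The fitted log2 fold change was -8.38 ± 2.46 (SE, adjusted p = 0.61 by edgeR's quasi-likelihood test). DESeq2 gave -8.48 with an adjusted p of 0.00465. The gene lies at chr10:34389981-34397085 on GRCm38, and 18 of its exonic bases overlap Nt5dc1 on the opposite strand.

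Col4a5 had no count in any of the 4 AML libraries, against 2, 2, 3, 116, 215 and 194 counts in the 6 normal libraries. Normal replicates 4, 5 and 6 held 10.6, 20.1 and 19.6 CPM and replicates 1 to 3 at most 0.304 CPM, so the normal libraries differed among themselves. Against a floor of 3 counts in each AML library, the mean was at least 24.8-fold lower in AML (adjusted p = 0.57 by edgeR's quasi-likelihood test, 0.00425 by DESeq2). Normal replicates 1 to 3 were themselves at or below that floor.

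Col6a5 likewise had no count in the 4 AML libraries, against 219, 156, 2, 3, 4 and 3 counts in the normal ones. Normal replicates 1 and 2 carried it, not the replicates that carried Col4a5 and Col10a1. The mean was at least 19.1-fold lower in AML, and at least 9.25-fold without normal replicate 1 (adjusted p = 0.63 by edgeR's quasi-likelihood test, 0.0157 by DESeq2). Col10a1, Col4a5 and Col6a5 were the tested collagen genes whose AML and normal Nes-GFP low libraries did not overlap, all lower in AML, where 0.667% of all genes were lower without overlap and 0.441% higher. These genes passed the filter through the normal group, and they separated by a few counts only: the highest AML library had 7 counts of Col10a1 against 8 in the lowest normal one by counts, and 0 of Col4a5 and Col6a5 against 2.

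Col9a3, a chain of the FACIT that coats cartilage fibrils, stood at 1658, 644, 258 and 265 CPM in the 4 AML libraries, against a lowest level of 853, a median of 1821 and a highest level of 2992 CPM in the 6 normal ones. AML replicates 2, 3 and 4 lay below every normal library and replicate 1 lay among them. The log2 fold change was -1.38 ± 0.60 (SE, adjusted p = 0.84 by edgeR's quasi-likelihood test) and -2.25 without AML replicate 1, and Col9a3 shares 234 exonic bases, 6.07% of its length, with Tcfl5 on the opposite strand. Col2a1, the fibril chain of cartilage, was at 11293, 5634, 2822 and 1318 CPM in AML, against 4254, 9959.8 (median) and 17300.0 CPM in normal libraries, with a log2 fold change of -1.04 ± 0.57 (SE, adjusted p = 1.0).

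Type I collagen overlapped between the groups. Col1a1 was at 9566, 760.0, 295 and 1102 CPM in AML, against 1057, 6261 (median) and 19244 CPM in normal Nes-GFP low libraries, and its log2 fold change was -1.43 ± 1.07 (SE, adjusted p = 1.0 by edgeR's quasi-likelihood test). AML replicate 1 was higher than normal replicates 3, 5 and 6, and without it the value was -3.50, whereas it was -0.93 without normal replicate 4. Col1a2 gave a like value (-1.17 ± 0.94, SE). Col3a1, the chain of reticular fibres, was at 987, 231, 99.1 and 967 CPM in AML, against 449.9, 696 (median) and 4077 CPM in normal libraries (-1.38 ± 0.81, SE). The basement membrane chains Col4a1 and Col4a2 had log2 fold changes of -0.56 ± 1.14 and -0.67 ± 1.0 (SE), smaller than their errors.

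Col26a1, an emilin-like collagen of little-known function, averaged 3.23 ± 3.98 CPM in AML and 36.6 ± 39.4 CPM in normal Nes-GFP low libraries (SD, n = 4 and 6), a log2 fold change of -3.49 ± 1.54 (SE, adjusted p = 0.86 by edgeR's quasi-likelihood test) that was -4.92 without AML replicate 1 and -2.83 without normal replicate 1. Its libraries overlapped, since normal replicate 4 held 1.74 CPM and AML replicate 1 9.18 CPM. Only 4 tested collagen genes had a log2 fold change above 0: Col23a1 (0.90) and Col25a1 (0.78), both transmembrane collagens, Col18a1 (0.59), the multiplexin that holds endostatin, and Col8a2 (0.41), the partner chain of Col8a1.

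**Figure D4:**
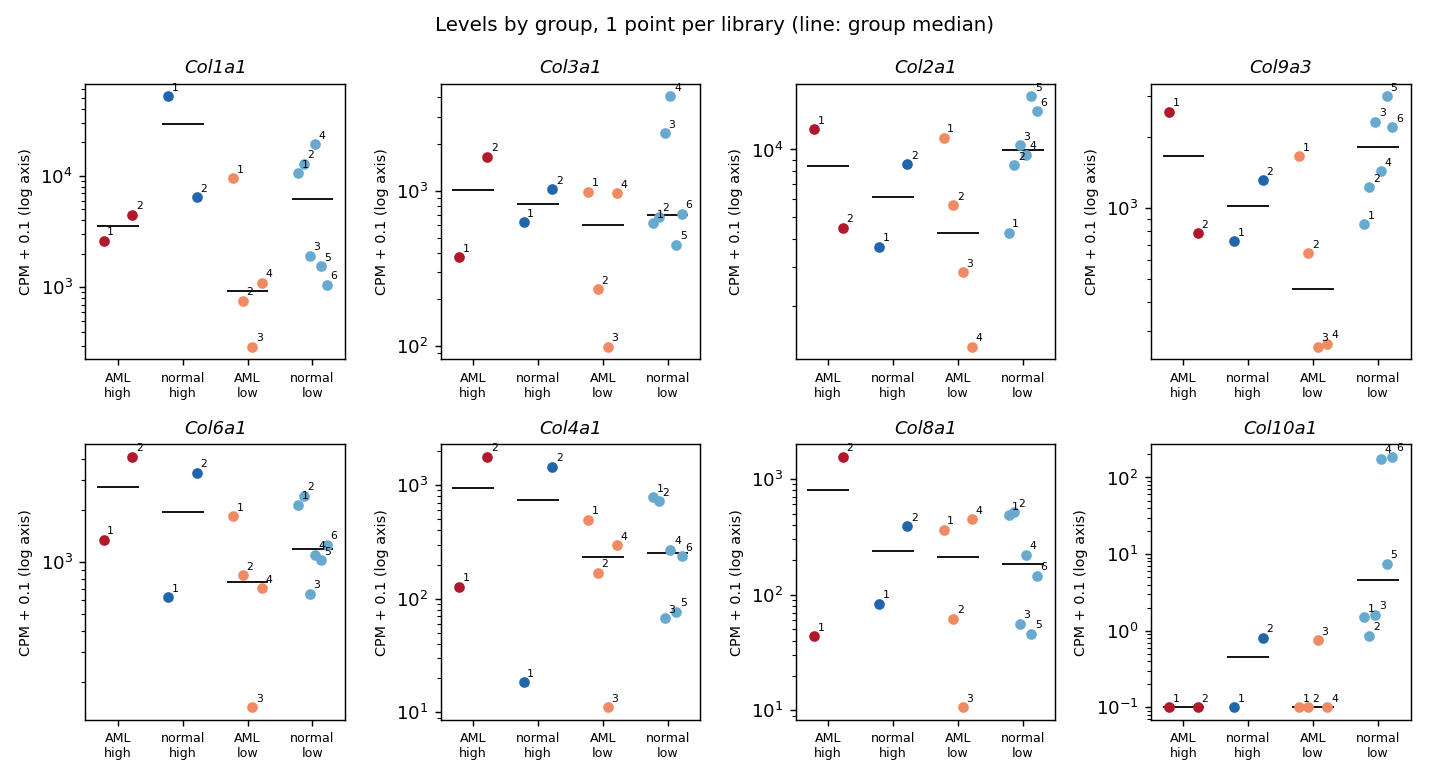
The level of 8 collagen genes (CPM plus 0.1, log axis) in each library, by group, with a line at the group median. Col10a1 lies at or below 0.709 CPM in all Nes-GFP high and AML Nes-GFP low libraries and reaches 185 CPM in normal Nes-GFP low ones, while Col1a1 spans 295 to 51903 CPM with overlapping groups in the low population.

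The second comparison asked the same of Nes-GFP high BMSCs, the population linked to arterioles, with 2 libraries on each side. Type I collagen was lower in both AML libraries than in both normal ones, but the gap rested on normal replicate 1, the library without the Nes level of its group. Col4a1, Col4a2, Col6a1, Col6a2 and Col8a1 were high in replicate 2 of both AML and normal mice and low in replicate 1 of both. No collagen gene passed the test.

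By edgeR's quasi-likelihood test none of the 35 collagen genes was called, where 0% of all genes were, and none by limma voom or DESeq2, where DESeq2 called 9.9% of all genes. At an unadjusted p under 0.05 there was 1 of 35, against 12.2% of all genes. The log2 fold change was below 0 for 18 of 35, against 45% of all genes, and the median was -0.12 against 0.08 over all genes. Without normal replicate 2 the count below 0 was 10 of 41. Libraries did not overlap for 4 collagen genes that were lower (11.5% of all genes) and 2 that were higher (16%), shares no larger than those of all genes.

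Col1a1 was at 2629 and 4475 CPM in AML, against 51903 and 6425 CPM in normal Nes-GFP high libraries. Normal replicate 1 exceeded the other libraries by far, and it also had the highest osteoblast sum, 24438 CPM, whose part in the result was not tested. The log2 fold change was -3.04 ± 1.70 (SE, adjusted p = 0.48 by edgeR's quasi-likelihood test), and -0.74 without normal replicate 1. Col1a2 was at 1519 and 4032 CPM in AML, against 23420.4 and 5108 CPM in normal libraries (-2.36 ± 1.48, SE, adjusted p = 0.54), and -0.76 without that library. Col22a1, a FACIT known from tissue junctions, and Col25a1, a transmembrane collagen, were the other 2 lower without overlap: Col22a1 stood at 4.34 and 0.837 CPM in AML against 138 and 5.96 CPM in normal libraries (-4.80 ± 2.48, SE, adjusted p = 0.45, and -1.12 without normal replicate 1).

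Col25a1 had the smallest p of the comparison, with 0.372 and 0.418 CPM in AML against 26.9 and 0.426 CPM in normal Nes-GFP high libraries. Its difference rested on normal replicate 1: the log2 fold change was -5.06 ± 2.28 (SE, adjusted p = 0.40 by edgeR's quasi-likelihood test) and 0.005 without that library. Col26a1 (-4.62 ± 2.39, SE, adjusted p = 0.45) turned to 6.54 without normal replicate 2, which held all of its normal reads at 60.3 CPM. Col18a1 was higher in AML, at 87.7 and 297 CPM against 16.5 and 65.4 CPM. Col6a4, an alternative type VI chain, had 88 and 1 counts in AML against 0 and 0 in normal libraries, a mean at least 13.7-fold higher that rested on AML replicate 1, without which the mean lay under the floor (adjusted p = 0.43).

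Col4a1, the main basement membrane chain, was at 128 and 1771 CPM in AML, against 18.3 and 1451 CPM in normal Nes-GFP high libraries. Within each group the libraries differed more than the groups did, and the log2 fold change was 0.37 ± 1.74 (SE, adjusted p = 1.0 by edgeR's quasi-likelihood test), -2.55 without AML replicate 2 and -0.47 without normal replicate 1. Col4a2 gave -0.17 ± 1.52 (SE), with 0.74 without AML replicate 1 and 2.35 without normal replicate 2. Col3a1 was at 372 and 1656 CPM in AML against 625 and 1023 CPM in normal libraries (0.30 ± 1.20, SE), and -1.18 without AML replicate 2. Col8a1, a network collagen of vessel walls, was at 43.4 and 1544 CPM in AML against 83.6 and 389 CPM in normal libraries, and Col6a1 at 1348 and 4094 CPM against 623 and 3314 CPM. In the libraries where these genes were high, AML and normal replicate 2, the marrow stroma sum was 34514 and 51545 CPM, and in replicate 1 it was 2069 and 8041 CPM, and its part was not tested.

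**Figure D5:**
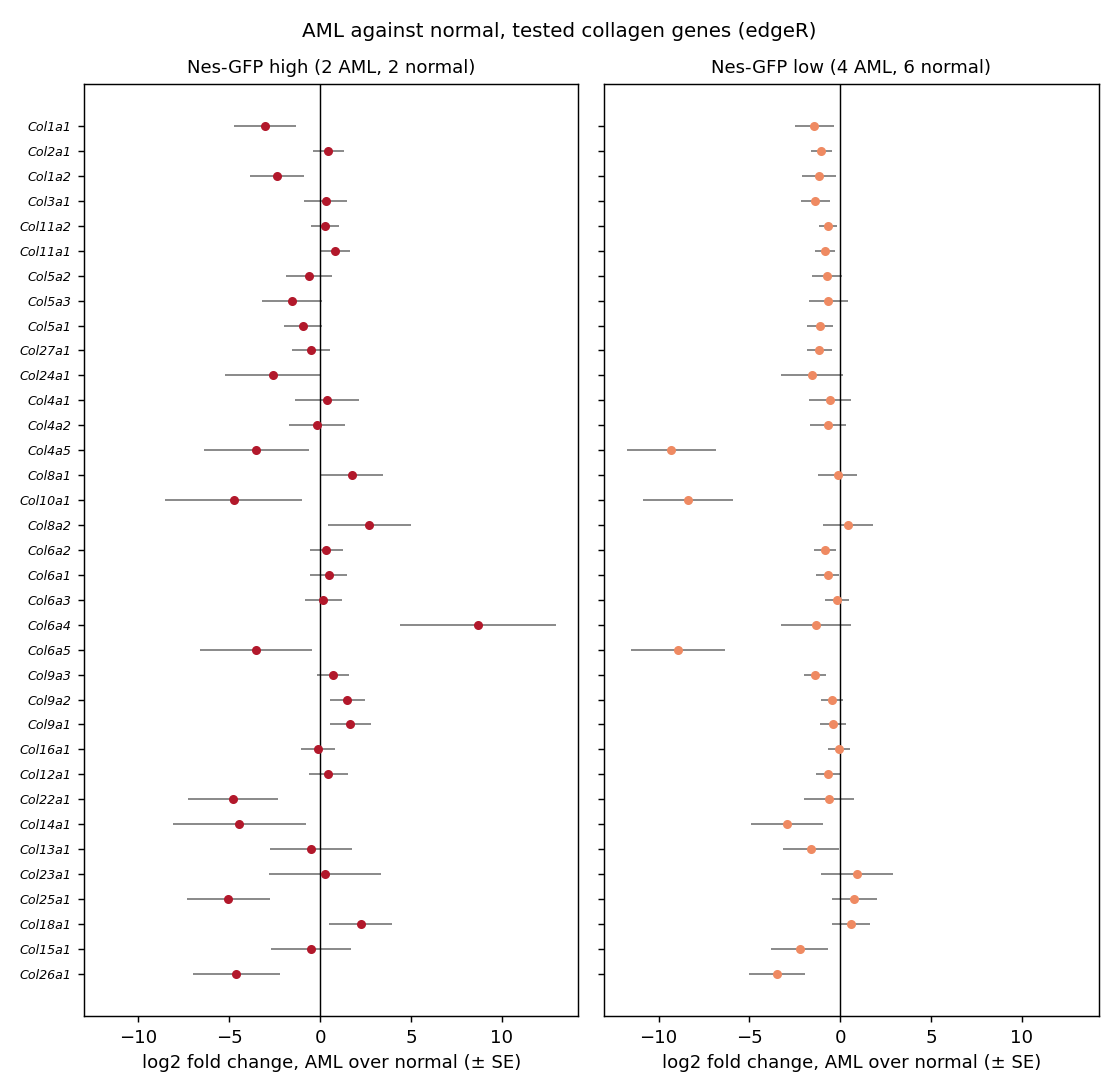
Log2 fold change of AML against normal for the 35 tested collagen genes, in Nes-GFP high (left) and Nes-GFP low BMSCs (right), with bars of 1 SE derived from edgeR's F statistic. In Nes-GFP low BMSCs 31 of 35 lie below 0 and in Nes-GFP high BMSCs 18 of 35, and folds of genes without counts in a group depend on the prior count and are not bounds.

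The third comparison set Nes-GFP high against Nes-GFP low BMSCs in AML mice, and the fourth did so in normal mice, and both share libraries with the comparisons above. In AML mice most collagen genes had higher means in the high population, among them chains of types IV, VI and IX, with the smallest p for Col6a2. In normal mice the log2 fold changes of the collagen genes were evenly divided between both directions. None passed edgeR's test in either.

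In AML mice, edgeR's quasi-likelihood test, DESeq2 and limma voom called none of the collagen genes, where edgeR called 0% and DESeq2 6.82% of all genes, and 1 of 35 had an unadjusted p under 0.05, against 8.97% of all genes. The log2 fold change was below 0 for 6 of 35, against 53.2% of all genes, with a median of 0.89 against -0.10. This rested on few libraries: the count below 0 was 23 of 40 with a median of -0.46 without AML Nes-GFP high replicate 2, and 15 of 41 without replicate 1. It was 11 of 41 without either one of the normal Nes-GFP high libraries, when more genes were tested. Col6a2 had the smallest p, with 1105 and 4594 CPM in Nes-GFP high against 1282, 820.3, 204 and 852 CPM in Nes-GFP low libraries of AML mice. Replicate 2 of the high population stood above all 4 low libraries and replicate 1 among them, and the log2 fold change was 1.85 ± 0.75 (SE, adjusted p = 0.54 by edgeR's quasi-likelihood test).

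Col6a1, its partner chain, gave 1.62 ± 0.83 (SE, adjusted p = 0.58), Col9a3 1.24 ± 0.74 and Col9a1 1.5 ± 0.92 (SE), the last with 3056 and 844 CPM in Nes-GFP high against 1065, 1270.0, 372 and 56.9 CPM in Nes-GFP low libraries. Col14a1, a FACIT of tendon and skin, had no count in either Nes-GFP high AML library, against 104, 3, 13 and 0 counts in Nes-GFP low ones, a mean at least 8.92-fold lower that rested on Nes-GFP low replicate 1 and was at least 1.46-fold without it (adjusted p = 0.57). Col25a1 was the only tested collagen gene without overlap here (lower in Nes-GFP high, against 8.83% of all genes, and 0 of 35 higher, against 6.91%), with a log2 fold change of -3.24 ± 1.99 (SE). Type I, III and IV chains had positive values, Col1a1 0.28 ± 1.35, Col1a2 0.54 ± 1.19, Col3a1 0.83 ± 1.01, Col4a1 1.97 ± 1.45 and Col4a2 1.77 ± 1.26 (SE). Without Nes-GFP high replicate 2 they were -0.15, -0.33, -0.60, -0.92 and -1.36, and Col1a1 was also -0.04 without Nes-GFP low replicate 2 and -0.10 without replicate 3.

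In normal mice edgeR's quasi-likelihood test and limma voom again called none, where edgeR called 0% of all genes, and 1 of 35 had an unadjusted p under 0.05, against 11.2% of all genes. DESeq2 called 2, against 10.5% of all genes. The log2 fold change was below 0 for 18 of 35, against 58.4% of all genes (medians -0.05 and -0.27), and for 31 of 41 without normal Nes-GFP high replicate 2. Col10a1 was at 0 and 0.709 CPM in Nes-GFP high libraries, against 0.756, 4.46 (median) and 185 CPM in Nes-GFP low ones, and it was the only tested collagen gene that was lower without overlap (7.86% of all genes). The groups barely separated, with 0.709 CPM in the higher Nes-GFP high library against 0.756 CPM in the lowest Nes-GFP low one, and the fitted log2 fold change was -7.42 ± 3.28 (SE, adjusted p = 0.43 by edgeR's quasi-likelihood test, 0.0306 by DESeq2). Col6a4 had no count in either Nes-GFP high library, against 85, 38, 4, 0, 92 and 183 counts in the Nes-GFP low ones, so the groups overlapped. Its mean was at least 16.7-fold lower, and at least 10.8-fold without Nes-GFP low replicate 6 (adjusted p = 0.45 by edgeR, 0.0499 by DESeq2).

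Higher levels without overlap in Nes-GFP high BMSCs of normal mice were seen for 2 of 35, Col5a1 and Col5a2, against 3.47% of all genes, a share near that of all genes. Col5a1 was at 327 and 378 CPM in Nes-GFP high libraries, against 75.7 to 256 CPM in Nes-GFP low ones, and Col5a2 at 671 and 637 CPM against 65.1 to 609 CPM. By DESeq2 their log2 fold changes were 1.19 and 1.21, with adjusted p-values of 0.53 and 0.62. Col5a3, the remaining type V chain, overlapped, at 91.2 and 789.7 CPM in Nes-GFP high against 20.1 to 307 CPM in Nes-GFP low libraries. The remaining named genes had values of either sign: Col1a1 1.89 ± 1.19, Col1a2 1.73 ± 1.06, Col3a1 -0.85 ± 1.03, Col4a1 1.04 ± 1.35, Col4a2 1.26 ± 1.17, Col25a1 2.60 ± 1.42, Col14a1 -6.30 ± 3.33, Col4a5 -5.80 ± 2.82 and Col6a5 -5.43 ± 2.94 (SE). The last 3 genes had 0 and 4, 0 and 2, and 0 and 2 counts in the Nes-GFP high libraries, means under the floor of 3 counts. A few Nes-GFP low libraries carried them, the groups overlapped, and their fitted folds are not bounds. Without normal Nes-GFP high replicate 1 the value of Col1a1 was -0.44 and that of Col25a1 -2.49, and without replicate 2 those of Col4a1 and Col4a2 were -4.23 and -1.24.

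Whether AML and normal differed by another amount in Nes-GFP high than in Nes-GFP low BMSCs was tested as the difference of both effects. EdgeR's quasi-likelihood test, limma voom and DESeq2 called no collagen gene, where edgeR called 0% and DESeq2 4.93% of all genes, and 1 of 35 had an unadjusted p under 0.05 (9.96% of all genes). The difference was below 0 for 10 of 35, against 46.5%, and for 21 of 40 without AML Nes-GFP high replicate 2 and 5 of 35 without AML Nes-GFP low replicate 1. The cartilage chains had positive differences, Col9a3 2.1 ± 1.07, Col9a2 1.97 ± 1.13 and Col11a1 1.69 ± 0.98 on the log2 scale (SE, adjusted p = 0.54 to 0.62). Col25a1 had the smallest p, with -5.84 ± 2.54 (SE, adjusted p = 0.47), and Col22a1 gave -4.16 ± 2.66. Col6a4, without counts in normal Nes-GFP high libraries, is left without a value here because its fitted difference depends on the prior count.

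For the type I, III and IV chains the difference was smaller than its error except for Col3a1, which gave 1.68 ± 1.44 (SE, adjusted p = 0.86 by edgeR's quasi-likelihood test). Col1a1 gave -1.61 ± 1.89, Col1a2 -1.19 ± 1.68, Col4a1 0.93 ± 2.08 and Col4a2 0.51 ± 1.81 (SE). Col1a1 and Col1a2 turned to 0.40 and 0.22 without AML Nes-GFP low replicate 1, and to 0.69 and 0.44 without normal Nes-GFP high replicate 1, where Col4a2 was -0.16. Col4a1 and Col4a2 were -1.97 and -2.65 without AML Nes-GFP high replicate 2.

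Chains that share a trimer kept narrower proportions than their levels. Per kilobase, Col11a1 stood at 0.278 to 0.523 times Col11a2 over the 14 libraries, a span of 1.88-fold where Col11a2 itself spanned 9.40-fold. Col6a1 stood at 1.33 to 2.75 times Col6a2, and Col1a1 at 1.38 to 4.20 times Col1a2 with a median of 3.06, while Col1a1 spanned 176-fold. The size of these ratios depends on the merged exon lengths, 6563 bases for Col1a1 and 12426 for Col1a2, 4380 for Col6a1 and 8326 for Col6a2. In CPM, Col1a1 was below Col1a2 in AML Nes-GFP low replicate 4 (1102 against 1513) and normal Nes-GFP low replicate 6 (1057 against 1133). It was above Col1a2 in the other libraries. Type I collagen holds more alpha 1 than alpha 2 chains, and RNA proportions need not match those of the protein. Col4a1 to Col4a2 was the looser pair, at 0.163 to 3.49, and Col5a1 to Col5a2 lay at 0.455 to 1.31.

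Col9a3 relative to Col9a2, 2 chains of the same type IX trimer, did not overlap between AML and normal libraries of either population. The ratio was 0.868, 0.315, 0.786 and 0.874 in AML Nes-GFP low libraries, against 0.894 to 1.30 in the 6 normal ones, and 0.736 and 1.02 in AML against 1.28 and 1.41 in normal Nes-GFP high libraries. Each AML library lay below the normal ones of its population, although AML Nes-GFP low replicates 1 and 4 were close to the lowest normal library. With 2 Nes-GFP high libraries on each side, separation there was not particular to this ratio. Col4a1 to Col4a2 (1.60 and 1.92 in AML against 0.163 and 1.20) also did not overlap there. The same held for Col6a1 to Col6a2 (1.69 and 2.32 against 1.55 and 1.68) and Col11a1 to Col11a2 (0.412 and 0.523 against 0.300 and 0.356). The Nes-GFP low means of Col9a3 to Col9a2 were 0.711 ± 0.266 in AML and 1.15 ± 0.152 in normal libraries (SD, n = 4 and 6). The log2 difference was -0.79, and -0.92 to -0.43 with 1 library left out (-0.43 without AML replicate 2). This ratio was picked after its values were seen to separate, so a test on the same libraries could not count as support. It is given as a description without a p-value. The other 8 chain ratios had exact two-sided permutation p-values of 0.43 to 0.87 between AML and normal Nes-GFP low libraries. These were adjusted over 9 ratios, Col9a3 to Col9a2 among them. The part of the bases that Col9a3 shares with Tcfl5 on the other strand was not tested.

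The other genes of the pathway were taken from lists of collagen maturation (34 genes tested, such as prolyl and lysyl hydroxylases, the chaperone Serpinh1 and the lysyl oxidases), breakdown (13) and receptors (9). EdgeR's quasi-likelihood test called none of them in any comparison, and 1 to 3 genes of all lists had an unadjusted p under 0.05 in each. DESeq2 called 1 receptor, Lair1, lower in Nes-GFP high than low BMSCs of AML mice (-5.86), and 1 maturation gene, Tll1, lower in Nes-GFP high than low BMSCs of normal mice (-7.23), where it called 6.82% and 10.5% of all genes. Lair1 had 3 and 3 counts in the high libraries against 55, 128, 646 and 0 in the low ones, so the groups overlapped. The highest of these was in replicate 3, whose myeloid sum was 94974 CPM, and the part of myeloid cells was not tested. Tll1 had 0 and 0 counts in the high libraries against 4, 3, 142, 74, 3 and 8 in the low ones, so its fitted fold is not a bound. Between AML and normal Nes-GFP low BMSCs, 31 of 34 maturation genes had a log2 fold change below 0 (median -0.56), 8 of 13 breakdown genes (-0.44) and 2 of 9 receptors (0.22), beside 49.8% of all genes. In Nes-GFP high BMSCs the counts were 17 of 34 (-0.02), 5 of 13 (0.59) and 4 of 9 (0.07), beside 45% of all genes. Between Nes-GFP high and low BMSCs, 2 of 34 maturation genes lay below 0 in AML mice (median 1.17), beside 53.2% of all genes. In normal mice 7 of 34 did (0.66), beside 58.4%. The counts of these lists were not repeated with libraries left out, so they may rest on few libraries, as those of the collagen genes did.

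Serpinh1, the chaperone that holds procollagen in its helix (HSP47), was counted in every library. It was at 828 and 1203 CPM in AML against 5353 and 1921 CPM in normal Nes-GFP high libraries (-1.84, adjusted p = 0.48 by edgeR's quasi-likelihood test), and at 2311, 445, 129.9 and 367 CPM in AML against 1091 to 2622 CPM in normal Nes-GFP low libraries. Of the 4 AML Nes-GFP low libraries, 3 lay below every normal one. Plod2, the lysyl hydroxylase of telopeptide cross-links, was at 429.8 and 202 CPM in Nes-GFP high against 157, 161, 45.9 and 55.1 CPM in Nes-GFP low BMSCs of AML mice, without overlap (1.59 ± 0.59, SE, adjusted p = 0.52). Tll1, a procollagen C-proteinase, had 2, 2, 1 and 4 counts in AML against 4, 3, 142, 74, 3 and 8 counts in normal Nes-GFP low libraries, a log2 fold change of -3.71 (adjusted p = 0.83) carried by normal replicates 3 and 4, which also had the highest myeloid sums of that group.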

How the data were processed

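RNA of sorted cells was amplified by Smart-seq2 and sequenced. Per the labels and the study's methods, the authors trimmed reads with Trim Galore 0.4.1, aligned them to mm10 with TopHat2 2.1.0 and counted reads per gene with featureCounts, and they tested with DESeq2 1.14.1. The deposited values are raw counts. Strand use is not given in the sources used here, so reads of genes that overlap on opposite strands cannot be told apart. The table has 16 library columns, of which 2 matched no sample and were not used. Further symbols occur on 2 lines for 13 genes, none of them a collagen gene. Within groups no libraries agreed within sampling noise.

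Counts were scaled with TMM and fitted in edgeR 4.0.16 (R 4.3.3, glmQLFit and glmQLFTest, filterByExpr with a minimum count of 10) with 4 groups and all 14 libraries, which thus share 1 estimate of the spread, and p-values were adjusted by Benjamini-Hochberg over all genes tested. The SE of a fold change is its absolute value divided by the square root of edgeR's F statistic. It is an approximation, since that test gives no standard error. Counts and folds of the collagen genes were repeated with DESeq2 1.42.0, limma 3.58.1 voom with sample quality weights, other size factors and filters, only the compared groups, a replicate block, and each library left out in turn. Levels per kilobase used the merged length of all annotated exons of a gene in GENCODE M21 (GRCm38). Floors of 3 counts cover counting error only. Tables and plots used Python 3.11.15, numpy 2.4.6, pandas 2.3.3 and matplotlib 3.10.9.

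The genes, the lists and the ratios were chosen with earlier results of these data known. Fold changes were given in each comparison for Col1a1, Col1a2, Col3a1, Col4a1, Col4a2 and the 6 tested collagen genes with the smallest unadjusted p, values per library for those with a mean of at least 10 CPM and their trimer partners, and of the pathway lists for genes among the 4 with the smallest p. Col5a1, Col5a2, Col18a1, Col8a2 and Col23a1 were further named for the counts they belong to, and Col2a1 as the most abundant cartilage chain, after their values were seen.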

Additional observations from a re-analysis of the deposited data

Results flagged for a closer look

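Collagen genes and summed collagen levels were screened for outlying libraries within the groups of 4 or more libraries, 84 checks in all. A library lay far from the rest of its group in 3, each for a single gene, where chance gives about 1 in 20. Col10a1 stood at 0.647 CPM in AML Nes-GFP low replicate 3 (7 counts), against 0 in the other 3 libraries of that group. With those 3 at the same value, that chance rate does not apply to it. Col6a3, the long chain of type VI collagen, stood at 22.5 CPM in the same library, against 148 to 204 CPM in the other 3. Col24a1, a minor fibrillar collagen, stood at 0.101 CPM in normal Nes-GFP low replicate 3, against 6.97 to 30.3 CPM in the other 5.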

How the results depend on the processing

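The number of collagen genes called stayed at 0 with each library left out in turn and under every alternative other than DESeq2, which called 3 in AML against normal Nes-GFP low BMSCs and 2 in Nes-GFP high against low BMSCs of normal mice. With 1 library left out, the count of log2 fold changes below 0 was 10 to 27 in AML against normal Nes-GFP high BMSCs, 5 to 23 in high against low of AML mice, 16 to 31 in high against low of normal mice and 5 to 21 in the difference of both effects. Of the fold changes so computed, 25 turned sign and 713 did not. In AML against normal Nes-GFP high BMSCs the ranges were -1.18 to 0.99 for Col3a1, -2.55 to 5.65 for Col4a1, -3.34 to 2.35 for Col4a2, -6.09 to 0.00501 for Col25a1 and -5.52 to 6.54 for Col26a1. In high against low of AML mice they were -0.15 to 2.33 for Col1a1, -0.33 to 1.97 for Col1a2, -0.60 to 1.57 for Col3a1, -0.92 to 2.89 for Col4a1 and -1.36 to 2.71 for Col4a2. In high against low of normal mice they were -0.44 to 2.78 for Col1a1, -4.23 to 1.86 for Col4a1, -1.24 to 1.97 for Col4a2 and -2.49 to 3.79 for Col25a1. In the difference of both effects they were -2.49 to 0.69 for Col1a1, -2.10 to 0.44 for Col1a2, -1.97 to 6.23 for Col4a1 and -2.65 to 3.04 for Col4a2. The log2 difference of the ratio of Col9a3 to Col9a2 was -0.92 to -0.43. The cause of these changes was not tested, except that fewer libraries entered and other genes then passed the filter.

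With no filter, 11 of 42 lay below 0 in high against low of AML mice. Without both replicates 3 of the low population (chosen after seeing the data), Col1a1 was -0.10 there. With limma voom Col4a1 was -0.59 in high against low of normal mice. Without TMM, the AML Nes-GFP high mean was 16458 CPM in place of 18332 CPM for fibrillar collagens and 29160.0 CPM in place of 32390 CPM for all collagens, since that scaling raises both libraries.

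Replicate numbers are shared in the labels, but nothing pairs the libraries, and deviations of same-numbered libraries correlated at -0.13 to 0.35. With the replicate block, edgeR called no collagen gene, the count below 0 was 28 in high against low of normal mice and 4 in the difference, Col4a1 and Col4a2 were -1.39 and -0.56 in high against low of normal mice, and Col1a1 and Col1a2 were 0.65 and 0.49 in the difference.

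Libraries of a group differed far beyond counting error (chi-square per degree of freedom 89.7 to 388), and each Nes-GFP high group held 2 libraries. The part of depth in the precision was not tested, and scarce genes such as Col10a1, Col4a5 and Col6a5 separated by a few counts only.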

Other observations

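Several scarce collagen genes were carried by a few libraries that differed from gene to gene, and these are given as values only. In normal Nes-GFP low libraries, Col14a1 reached 35.0 and 88.3 CPM in replicates 3 and 4 and 14.5 CPM in replicate 6, and at most 0.468 CPM in the other 3. Col15a1, a multiplexin of basement membrane zones, reached 32.3, 52.2 and 85.0 CPM in replicates 1, 3 and 4, and at most 4.49 CPM in the other 3. Col13a1, a transmembrane collagen of adhesion sites, reached 24.1, 75.2 and 40.1 CPM in replicates 1, 2 and 4, and at most 2.12 CPM in the other 3. Col18a1 was at 28.8 to 76.0 CPM in replicates 1 to 4 and at 1.03 and 0.506 CPM in replicates 5 and 6, in which Col2a1 was highest of that group.

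Col12a1, a FACIT of dense connective tissue, and Col16a1, a FACIT of cell to matrix contacts, were measured in every library, at 15.2 to 247 and 41.6 to 404 CPM. Col27a1, a fibrillar collagen of developing cartilage, was at 107 and 7.32 CPM in AML against 58.0 and 102 CPM in normal Nes-GFP high libraries, and at 175, 47.0, 22.9 and 53.1 CPM in AML against 98.2 to 232 CPM in normal Nes-GFP low ones, where 3 of 4 AML libraries lay below all 6 normal ones.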
